A study of Zea mays with 9 samples.

Results

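A set of 102 maize genes had less chromatin accessibility at 6 h of tunicamycin than at 0 h and at 12 h. At 12 h their accessibility was near that at 0 h, which is in part fixed by how the genes were chosen and does not show a return. They were picked out of 38703 genes by a rule on the measured values themselves. A gene belonged to the set if its mean coverage over the 9 libraries was 730 to under 2000, if each of its 6 h values lay below each of its 0 h and 12 h values, and if its mean at 0 h and its mean at 12 h were each at least 1.5 times its mean at 6 h. Of the 19836 genes in that range of coverage, 102 met the rule, which is 0.514%. The count is tied to these libraries and to the scaling. Without 6 h replicate 1, 2 or 3 the rule found 335, 351 or 291 genes, with 80, 89 and 75 of the 102 among them. Fewer 6 h libraries then had to lie below the others, which by itself loosens the rule. Without 1 library of 0 h or 12 h the rule found 122 to 137, and without scaling it found 652. The dip at 6 h is therefore how these genes were chosen, and it is described here without a test.

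The samples were roots of seedlings of the maize inbred line B73, all given tunicamycin in DMSO, with 3 libraries at 0 h, 3 at 6 h and 3 at 12 h. All 3 times carry the drug in their labels. With no untreated samples for the later times, hours in the drug and hours as such cannot be told apart. The series gives the 3 libraries of a time as biological replicates, but nothing says that they came from separate plants or days, so any p-value measures the spread between these libraries only. One label names protoplasts where the others name root, and whether the tissue is root could not be checked, because the files pair no gene identifier with a gene name and accessibility is not expression.

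ATAC-seq reads open chromatin: a transposase carrying sequencing adapters cuts into DNA that nucleosomes and other proteins leave exposed, and the coverage at a gene grows with how often it was cut. Tunicamycin stops the first step of N-linked glycosylation, so that proteins made in the endoplasmic reticulum fail to fold. In plants the unfolded protein response that follows runs through IRE1, a membrane protein that splices the mRNA of the transcription factor bZIP60, and through membrane-bound bZIP factors that move to the nucleus, and it raises genes for chaperones of the endoplasmic reticulum. If the stress persists, the same pathway is linked to cell death.

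The deposited value is coverage at a gene, in read bases. Below, each library was scaled to the mean of the 9 library totals, and "coverage" means that scaled value unless stated. Values pile up on multiples of 73, so 73 is taken as the coverage of 1 full read and a "read equivalent" is coverage divided by 73. Deposited totals were 35.0 to 39.1 megabases at 0 h, 28.9 to 33.1 at 6 h and 35.8 to 36.8 at 12 h. Every 6 h total lay below every other total, so the libraries that define the dip are also the shallowest, and the part of depth in the dip was not tested. Summed over its 3 libraries, the median member held 48.9 read equivalents at 0 h, 28.0 at 6 h and 48.8 at 12 h. These sums are of scaled coverage, and before scaling those at 6 h were lower. The dip in a typical member rests on about that many reads, some of which may be PCR copies of one molecule.

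Over the 102 members, mean coverage had a median of 1190.0 at 0 h, 680.4 at 6 h and 1187 at 12 h. In replicates 1, 2 and 3 the median member had 1171, 1206 and 1185 at 0 h, 698, 702 and 704 at 6 h, and 1220.2, 1157 and 1276 at 12 h. The rule requires a low value in each 6 h library. The lowest of the 3 values at 6 h fell in replicate 1 for 36 members, in replicate 2 for 28 and in replicate 3 for 38. The members together took 0.362% to 0.377% of a library's coverage at 0 h, 0.209% to 0.220% at 6 h and 0.359% to 0.383% at 12 h. No member was at 0 in any library.

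**Figure D1:**
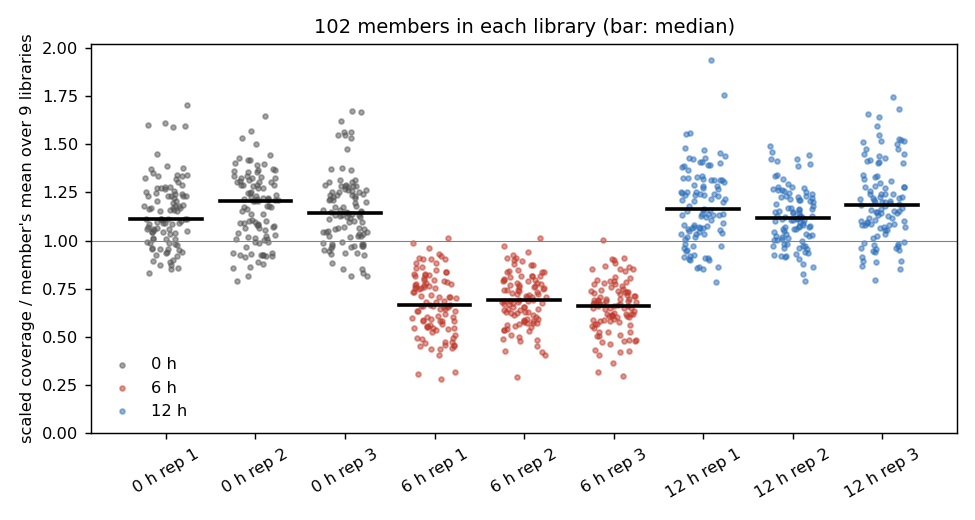
Scaled coverage of the 102 members in each of the 9 libraries, divided by the member's own mean over the 9 libraries (vertical axis, a ratio); each point is 1 member and each bar the median. The 3 libraries at 6 h lie together at the bottom, as the rule requires, with medians of 698, 702 and 704 before the division.

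The dips were moderate in size. The fold, taken as the lower of the 0 h and 12 h means over the 6 h mean, had a median of 1.63 and a range of 1.5003 to 2.13. It was under 1.6 in 39 members, 1.6 to under 1.8 in 51 and 1.8 or more in 12. Only 4 members had a fold of 2 or more, which were Zm00001d031431, Zm00001d045296, Zm00001d041246 and Zm00001d036579. The distance between the highest 6 h value and the lowest value at the other times was also small. It had a median of 113 coverage units, it was under 73, the worth of 1 read, in 34 members, and it was worth 3 reads or more in 20. The lowest value outside 6 h came from a 0 h library in 53 members and from a 12 h library in 49.

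Zm00001d031431 had the largest fold. Its coverage was 782, 954 and 903 at 0 h, 349.5, 376 and 512 at 6 h, and 1107, 899.6 and 1191 at 12 h, which gives means of 879 ± 88.4, 412 ± 86.9 and 1066 ± 149.9 (SD, n = 3 each). Its groups were well apart, with 269.9 units between the highest 6 h library and the lowest other library. Its 6 h mean was lower 2.13-fold than its 0 h mean and 2.58-fold than its 12 h mean. Its 3 libraries summed to 36.1 read equivalents at 0 h and 17.0 at 6 h. The largest fold of the set thus belongs to a gene of low coverage within the range, with a mean of 786 against a median of 1111.

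Zm00001d047466 had the cleanest dip relative to its level. It held 906, 848 and 923 at 0 h, 410.2, 462 and 448 at 6 h, and 763, 1040.1 and 831 at 12 h. Its lowest library outside 6 h was 1.65 times its highest 6 h library, the largest such ratio of any member, and its 0 h and 12 h means were 892 ± 39.4 and 878 ± 144 (SD, n = 3 each). Zm00001d001767 was much alike, with 1042, 1039 and 1162 at 0 h, 514, 631 and 529 at 6 h, and 1002, 1139 and 1423 at 12 h. Both genes stood at 12 h within the spread of their 12 h libraries from where they began.

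Zm00001d018872 had the widest distance in coverage units, 436. Its values were 1279, 1477 and 1520.0 at 0 h, 738, 802 and 842 at 6 h, and 1308, 1767 and 1293 at 12 h. Zm00001d015126 was the tightest of these at the start, with 1789, 1831 and 1796 at 0 h, 869.9, 773 and 942 at 6 h, and 1844, 1429.8 and 1349.6 at 12 h. Its 12 h libraries were uneven: replicate 1 was near the 0 h values and replicates 2 and 3 lay between those and the 6 h values. Zm00001d042493 had 1247, 1337 and 1017 at 0 h, 656, 645 and 641 at 6 h, and 982, 1149.8 and 1652 at 12 h, so that its libraries were even at 6 h and uneven at 12 h.

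Other large folds came from uneven 6 h libraries. Zm00001d045296 had the second fold of the set, 2.08, with 1146, 1699 and 1664 at 0 h, 717, 317 and 671 at 6 h, and 1483, 1205 and 862 at 12 h. Zm00001d041246 had 1081, 1225 and 887 at 0 h, 756, 373 and 440.4 at 6 h, and 1226, 843 and 1419.8 at 12 h. Zm00001d003015 had 1386, 1565 and 1609.8 at 0 h, 575, 1200.5 and 672 at 6 h, and 1681, 1436 and 1357 at 12 h. The 3 genes had SDs at 6 h of 219, 205 and 336, and their highest 6 h libraries lay 145, 86.4 and 157 units below the nearest library of another time.

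**Figure D2:**
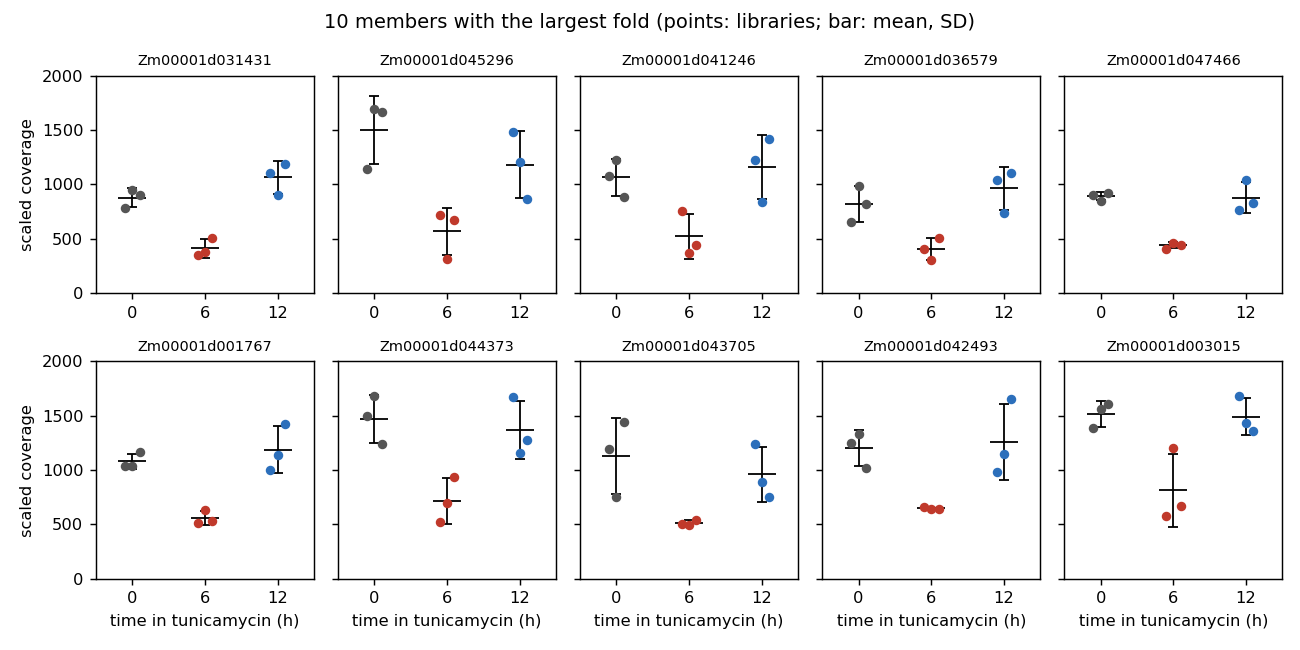
Scaled coverage by hours in tunicamycin for the 10 members with the largest fold; points are libraries, the horizontal bar is the mean and the error bar the SD of 3 libraries. All 10 genes drop at 6 h by construction, but the spread at 6 h is narrow in Zm00001d047466 and Zm00001d042493 and wide in Zm00001d045296 and Zm00001d003015.

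At the edges of the rule, membership turned on small amounts. The member of lowest mean was Zm00001d036579, with a mean over the 9 libraries of 731 and a fold of 2.01. Zm00001d050781 had the same shape and a fold of 2.13 but a mean of 729, and so stayed out. On the fold, Zm00001d054038 was inside at 1.5003 and Zm00001d024952 outside at 1.4992. The member of highest mean was Zm00001d040730 at 1840.3, and 0 of the 1707 genes with a mean of 2000 or more had the shape. The narrowest separation was 2.34 units in Zm00001d014711, a small part of 1 read. In the range of coverage as a whole, 303 genes had every 6 h library below the other 6 and 317 had every 6 h library above them, so complete separation was no more frequent downward than upward. Of those 303 genes 201 missed the fold of 1.5, and a further 117 genes reached the fold without separating.

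The members lay toward the lower end of the range of coverage. Between a mean of 730 and under 1000 there were 47 members (0.625% of 7521 genes), between 1000 and under 1300 there were 30 (0.513% of 5847), between 1300 and under 1600 there were 21 (0.555% of 3781), and between 1600 and under 2000 there were 4 (0.149% of 2687). The last 4 were Zm00001d025953, Zm00001d029391, Zm00001d040730 and Zm00001d051654. A fold of 1.5 needs fewer reads at a gene of low coverage, so these shares are not a rate of response.

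The mirror rule, with every 6 h value above the others and a 6 h mean at least 1.5 times each of the other means, was met by 66 genes of the same range (0.333%), against the 102 with a loss. The rule itself asks for a comparison with relabelled columns, so both counts were repeated for the 839 other ways to sort the 9 columns into a low set and 2 high sets of 3. As labelled the loss rule found 102 genes, and the other assignments found 38 to 108 with a median of 65. As labelled the mirror rule found 66, and the other assignments found 17 to 74 with a median of 37. The loss rule found more genes than the mirror rule with relabelled columns too, so the 102 against 66 does not show that losses outnumber gains.

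With the 3 libraries at 6 h as the low set and the 0 h and 12 h libraries mixed, the 9 assignments gave 98 to 105 genes, 8 of them at least 102. With 2 of the 6 h libraries in the low set the counts ran from 54 to 108, the highest of any assignment, with a median of 74. With 1 the median was 64 and with none it was 60.5. Low sets made of the 3 libraries at 0 h or the 3 at 12 h gave medians of 81.5 and 88 over 10 assignments each, also above the median of 65. Some low sets of mixed times reached counts as high as these. With 1 or none of the 6 h libraries in the low set the highest count was 93. With 2 of them, 2 of the 180 assignments gave at least 102. The 6 h libraries had the lowest totals, and the part of depth or of a batch in these counts was not tested, and the labels give no batch or date. These counts describe the rule and carry no p.

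**Figure D3:**
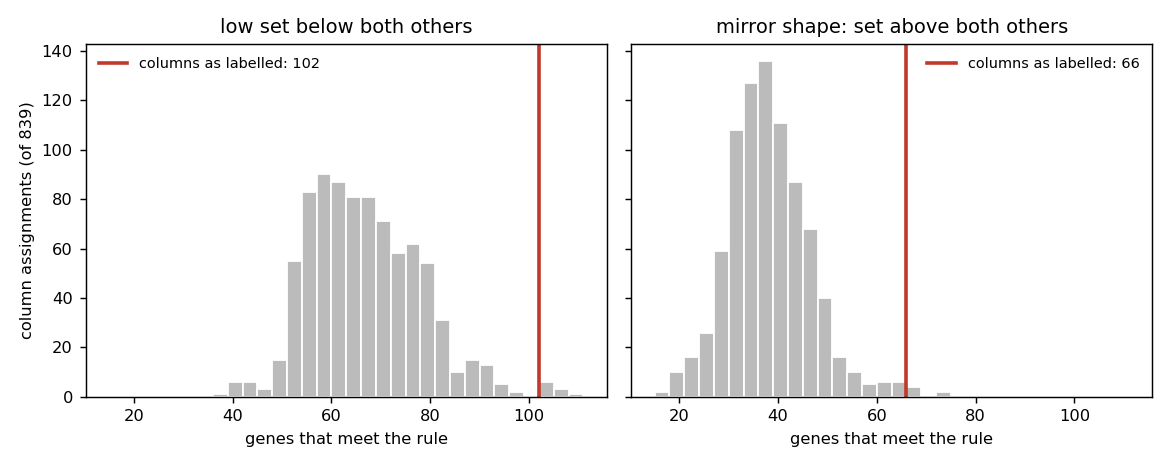
Number of genes that met the rule (horizontal axis) under the 839 other assignments of the 9 columns (vertical axis, assignments per bin), for a low set on the left and the mirror shape on the right; the red line is the count with the columns as labelled. The labelled counts of 102 and 66 lie in the upper tail of both panels. The left panel has the higher median, 65 against 37, and the ranges overlap.

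Whether the dip is seen in libraries that did not choose the genes was read by holding libraries back. The rule was applied to 2 libraries of each time, and the log2 ratio of 6 h to the mean of 0 h and 12 h, with a pseudocount of 73, was read in the libraries of the third replicate number. With replicate 1 held back, 386 genes were chosen, and their median ratio was -0.76 in the libraries that chose them and -0.08 in the held-out ones. With replicate 2 held back, 436 genes had -0.77 and -0.06, and with replicate 3 held back, 361 genes had -0.76 and -0.10. The mean held-out ratio was -0.08 ± 0.02 (SD over 3 sets), against -0.01 ± 0.004 for all genes of the same range. The 3 sets share libraries used for choosing, so an SD over them is not a spread between independent replicates. The held-out ratio was 10.2% of the ratio in the choosing libraries, before the small shift of all genes is taken off.

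The held-out 6 h library was the lowest of its 3 in 40.2% ± 2.70 of the chosen genes (SD over 3 sets), against 34.5% ± 0.659 of all genes in the range. Per set these shares were 40.9%, 37.2% and 42.4% of the chosen genes, against 34.1%, 34.2% and 35.3% of all. All 3 sets moved the same way, but most chosen genes did not have their lowest held-out value at 6 h. Taken over all 27 ways to hold back 1 library of each time, which share libraries, the median of the chosen genes ran from -0.11 to -0.03 and lay below that of all genes in each of the 27. These larger sets, chosen on fewer libraries, are not the 102 members, for which no library is left unused.

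**Figure D4:**
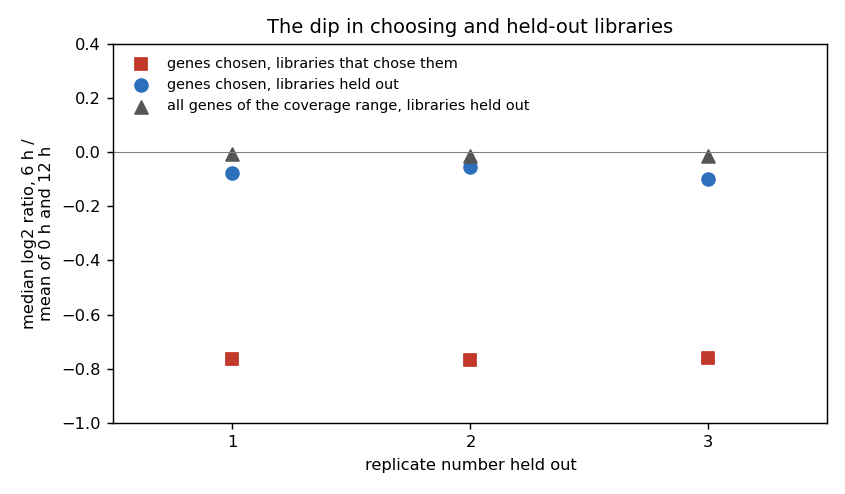
Median log2 ratio of 6 h to the mean of 0 h and 12 h (vertical axis) for the replicate number held back (horizontal axis), for genes chosen in the remaining libraries, read in those libraries (squares) and in the held-out libraries (circles), and for all genes of the coverage range in the held-out libraries (triangles). The circles lie just under the triangles and far above the squares in all 3 sets.

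The comparison the rule did not make is 12 h against 0 h, although it used libraries of both times. The members ended close to where they began. Mean coverage at 12 h over that at 0 h had a median of 1.00 and a range of 0.787 to 1.52, and 53 of 102 members (52.0%) were higher at 12 h, against 48.8% of all genes in the range. In 94 members the means at 12 h and 0 h were within 1.2-fold of each other (92.2%), against 62.6% of all genes in the range. A gene must be high at both times to be a member, so closeness of 12 h to 0 h is in part fixed by the rule.

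limma, fitted to all 38703 genes and 9 libraries, called 0 genes for 12 h against 0 h at a Benjamini-Hochberg adjusted p under 0.05 (0%), and so 0 members. At an unadjusted p under 0.05 it gave 2002 genes (5.17%), of which 1096 of the 19836 in the range (5.53%) and 0 of the 102 members. The rule used the same 0 h and 12 h libraries, so the 0 among members is in part fixed by the choice. The members' log2 changes at 12 h ran from -0.37 to 0.55, with a median of -0.01 and a median standard error of 0.30. With errors of that size, the absence of calls does not show that the members had returned to their 0 h level.

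Zm00001d028512 and Zm00001d032324 had the lowest p of the members with more coverage at 12 h. Zm00001d028512 had 1527, 1424 and 1364 at 0 h, 787, 1112 and 856 at 6 h, and 2233, 2045 and 1594 at 12 h. Every 12 h library of this gene lay above every 0 h library, with a log2 change of 0.42 (SE 0.25) and a limma adjusted p of 0.949. Zm00001d032324 had 766, 953 and 870.0 at 0 h, 252, 728 and 545 at 6 h, and 1732, 906 and 1296 at 12 h. Here 12 h and 0 h overlapped. Its log2 difference, 12 h over 0 h, was 0.55 (SE 0.36), at a limma adjusted p of 0.949, and without 12 h replicate 1 it was 0.32.

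Zm00001d005871 had 766, 1035 and 908 at 0 h, 717, 592 and 416 at 6 h, and 1086, 1091 and 1294 at 12 h. For 12 h over 0 h this is 0.35 on the log2 scale (SE 0.32), at a limma adjusted p of 0.958. Together with Zm00001d028512 and Zm00001d052184 it was 1 of 3 members (2.94%) whose 12 h libraries all lay above the 0 h ones, against 5.47% of all genes in the range. None of the 102 members had all 12 h libraries below all 0 h ones, against 6.06% of the genes in the range. The rule used these same 0 h and 12 h values, so both low shares are in part fixed by the choice.

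The lowest p among members with less coverage at 12 h belonged to Zm00001d045296, with means of 1183 ± 311 at 12 h and 1503 ± 309.8 at 0 h (SD, n = 3 each), a log2 change of -0.37 (SE 0.33) and a limma adjusted p of 0.957. Zm00001d015126 had means of 1541 ± 265 at 12 h and 1805 ± 22.3 at 0 h (SD, n = 3 each), a log2 change of -0.26 (SE 0.25) and a limma adjusted p of 0.961. Single libraries moved both values: Zm00001d045296 was at -0.56 without 0 h replicate 1 and -0.16 without 12 h replicate 3, and Zm00001d015126 was at -0.39 without 12 h replicate 1 and -0.16 without 12 h replicate 3. In both genes the 12 h and 0 h libraries overlapped, and neither difference passed the threshold.

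**Figure D5:**
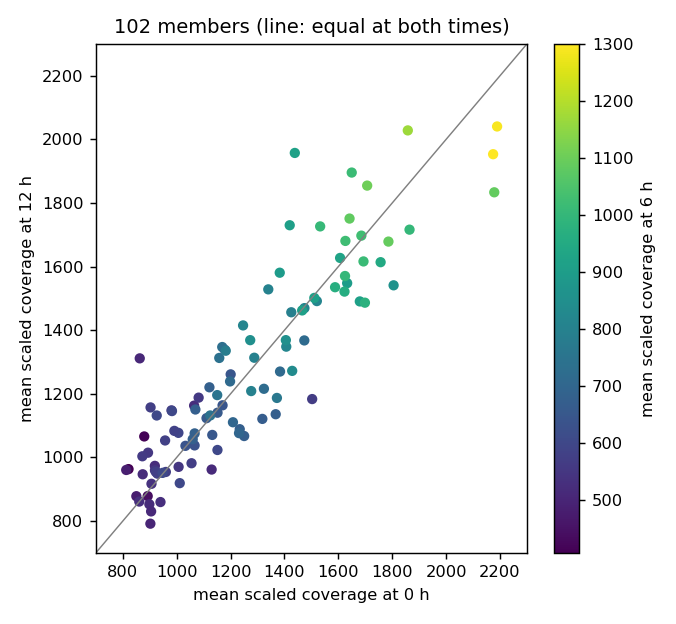
Mean scaled coverage at 12 h (vertical axis) against 0 h (horizontal axis) for the 102 members, coloured by their mean at 6 h; the line marks equal coverage at both times. The points scatter on both sides of the line, with 53 above it. The point farthest above it is Zm00001d028512 at 1957 against 1438, and the largest ratio of 12 h to 0 h is that of Zm00001d032324 at 1311 against 863.

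None of the members had coverage identical to another gene's in all 9 libraries, although 165 genes of the table did, and 0 members stood next to each other in the table or carried consecutive identifier numbers. No 2 members thus share their full row of values or neighbouring identifiers. The variation within a time, as the SD over the mean of 3 libraries, had a median of 14.9% at 0 h, 20.1% at 6 h and 16.1% at 12 h in the members, against 19.4%, 21.7% and 19.9% in all genes of the range. The rule favours genes whose libraries agree, so a smaller spread among members was built into the choice.

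None of the 38703 identifiers matched the RefSeq gene table of maize, so members are given by identifier alone. Which of them, if any, belong to the unfolded protein response, N-glycosylation, secretion or cell death was not analysed here, nor were their chromosomes or promoters.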

How the data were processed

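ATAC-seq libraries from maize B73 roots at 0 h, 6 h and 12 h of tunicamycin (3 each) were read from 1 deposited table with 0 columns outside these samples. The authors deposited a whole-number coverage signal per gene. Its unit was inferred from the values, of which 16.6% to 22.6% above 0 per library were multiples of 73 (1.37% for an even spread). Cutadapt 1.11, Bowtie2 2.2.6, MACS2 and DESeq2 are named without role in the submitters' processing notes. The sources used here give no genome build, window, read shift or duplicate removal, each of which could change the coverage of a gene. Library totals before scaling were 396306 to 536001 read equivalents.

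Members were found after scaling to equal totals. The 12 h against 0 h test used limma 3.58.1 in R 4.3.3 (trend, robust) on log2(coverage + 1), which understates changes of low genes, after scaling by the trimmed mean of M values (30% of ratios and 5% of levels trimmed); genes with a mean under 1 at every time were to be dropped, and 0 were. P-values are two-sided, Benjamini-Hochberg adjusted. Both steps were tested on simulated data. Members, gene lists and tests were chosen with earlier results of these data known. Named genes are the 10 members of largest fold, the 10 of largest separation ratio, the 5 of lowest p at 12 h in each direction and those at the rule's edges, with others given where a count was small, chosen after their values were seen. Planned gene groups, promoter motifs, positions and marker genes could not be used, because 0 identifiers matched. Alternatives covered scaling, thresholds, pseudocount, weights, the replicate block and leaving out libraries.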

Additional observations from a re-analysis of the deposited data

Results flagged for a closer look

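In 5 of the 23 members named by rule, every 6 h library lay below the 0 h mean and every 12 h library above it, so that the changes from 0 h at the 2 later times pointed opposite ways. The 6 h side is fixed by the choice of members, 4 of the 5 were named for a low p at 12 h, and the difference was not tested. As the change at 12 h minus the change at 6 h, in scaled coverage, it was 1039.28 in Zm00001d028512, 802.9 in Zm00001d032324, 723 in Zm00001d038537, 653 in Zm00001d031431 and 582 in Zm00001d005871. The 0 h mean cancels in this difference, which is the 12 h mean minus the 6 h mean. The rule makes it positive in every member, so its size does not measure changes that point opposite ways. It was 878 in Zm00001d001771, a member outside these 5. Over all 102 members, 10 had every 12 h library above the 0 h mean and 9 had every one below it. The same counts were not taken over all genes of the range, so these cannot be called many or few.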

How the results depend on the processing

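Scaling by the trimmed mean of M values gave 111 members, 101 of them among the 102. Without scaling 652 genes met the rule, all 102 included, since the 6 h totals were the lowest. A lower fold threshold, as planned, gave 264, a fold of 2 gave 4, and dropping the separation of every library gave 219. Means of 200 to under 730 held 151 such genes of 14904, and means of 2000 or more held 0 of 1707. Leaving out each library gave 122 to 351: without 6 h replicate 1, 2 or 3 there were 335, 351 and 291, with 80, 89 and 75 of the 102 among them, and fewer libraries had to separate. The held-out log2 ratio was -0.0383 when that lower fold chose the genes, and the cause was not tested. With other scaling, a pseudocount of 1, a fold of 2 and all 27 sets it was -0.0812, -0.0846, -0.0802 and -0.0691, and -0.0887 to -0.0662 leaving out each set. At a fold of 2 only 33, 42 and 31 genes were chosen. The SD over those sets was 0.133, larger than the value, so that setting cannot tell whether the ratio holds.

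For 12 h against 0 h limma called 2 genes on the square-root scale (neither a member: Zm00001d019241 and Zm00001d040216, with adjusted p of 0.047 each) and 0 in every other alternative run, with 1266 to 2309 genes at an unadjusted p under 0.05. With the replicate block it called 0, with 2007 at the unadjusted level. Same-numbered libraries did not deviate together (correlations -0.014 to 0.014 over genes), and in 10 of 18 comparisons a library correlated best with its own number. Of 160 log2 changes of the 10 members named for 12 h, 160 kept direction and side of the threshold, though in 8 of the 10 members leaving out 1 library moved the size by over 1.5 times, with limma adjusted p of 0.835 to 0.9998.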
